A study of Mus musculus with 8 samples.

Results

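The change between untreated hearts and hearts taken 3 days after infarction was set side by side in MRL/MpJ and C57BL/6 mice, to find the genes whose early change differs between the strains. MRL/MpJ is an inbred line known for closing ear wounds with little scar, and C57BL/6 is a widely used inbred line. The groups were MRL/MpJ 3 days after closure of the left anterior descending coronary artery by ligature, MRL/MpJ untreated, C57BL/6 3 days after the same operation and C57BL/6 untreated, all males of 2 to 4 months, with left ventricle as the labelled tissue. They are 4 of the 8 arrays of the study, which also followed both strains to days 30 and 60. Each group had 1 array, the labels do not say whether an array holds RNA of 1 mouse or of a pool, and the untreated hearts had no sham operation. A difference between these groups therefore has no replicate check, and strain, animal and array cannot be told apart.

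After a coronary artery is tied off, heart muscle downstream dies, and within days the dead tissue is entered first by neutrophils and then by monocytes and macrophages that clear debris. Fibroblasts then divide, move in and lay down a provisional matrix that matures into a collagen scar, while surviving muscle cells shift away from fatty acid oxidation and switch on genes of the fetal heart. In bulk tissue such as this, fewer cells of a type and less RNA per cell cannot be told apart.

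The values are signals on a linear scale. A change is the difference of log2(signal + 28.6), where the added offset is the 20th percentile of all values. Genes were kept when a probe set with a single gene symbol reached a signal of 121, the overall median, on 2 or more of the 8 arrays, which left 8208 genes. The quantity described throughout is the difference between the strains' changes, MRL/MpJ minus C57BL/6 on the log2 scale. At 1 the MRL/MpJ change lies 2-fold above that of C57BL/6. A "larger" or "smaller" change is meant with its sign. A smaller one can thus be a deeper fall, and a larger one a shallower fall or none. Median signals of the 4 arrays lay between 116 and 129.6, so their scales were close. Across the genes kept, the MRL/MpJ day 3 array correlated with the others of the 4 at r of 0.884 to 0.909. Those others correlated with each other at 0.933 to 0.946. Every MRL/MpJ change described here rests on that 1 day 3 array. The C57BL/6 day 30 array correlated with every other array at r of at most 0.877 across the genes kept. It has no part in the changes described here, but it enters the offset, the filter on signal, the error of the limma test and the day 30 values.

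Heart muscle was checked through Myh6 and Tnnt2, which were abundant in all 4 arrays. These genes do not tell ventricle from atrium, so the labelled part of the heart was not checked by them. Myh6, the main myosin heavy chain of the adult mouse ventricle, had signals of 17443 on day 3 and 20829 untreated in MRL/MpJ, against 18322 and 13965 in C57BL/6. Tnnt2, cardiac troponin T, had 23168 on day 3 and 20993 untreated in MRL/MpJ, against 21143 and 17426 in C57BL/6.

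The MRL/MpJ heart departed further from its untreated counterpart on day 3 than the C57BL/6 heart did. In MRL/MpJ, 411 of 8208 genes (5.01%) were at least 2-fold higher on day 3 and 218 (2.66%) at least 2-fold lower. In C57BL/6 these counts were 199 (2.42%) and 111 (1.35%). The SD of the change across genes was 0.60 in MRL/MpJ and 0.45 in C57BL/6. Across genes, which are not independent replicates, the changes of the strains correlated with r = 0.27 and rho = 0.23.

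The difference between the strains' changes reached 2-fold for 484 genes in favour of MRL/MpJ (5.9%) and for 342 genes in favour of C57BL/6 (4.17%). Its median over all 8208 genes was 0.02, and it was above 0 for 51.2% and below 0 for 48.8%. Of the 484 genes, 189 were at least 2-fold higher on day 3 in MRL/MpJ and within 2-fold in C57BL/6, and 69 were within 2-fold in MRL/MpJ and at least 2-fold lower in C57BL/6. A further 15 were 2-fold higher in both strains, 16 were 2-fold higher in MRL/MpJ and 2-fold lower in C57BL/6, and 195 reached 2-fold in neither. Of the 342 genes, 127 were 2-fold lower in MRL/MpJ alone, 52 were 2-fold higher in C57BL/6 alone, 9 were 2-fold lower in MRL/MpJ and 2-fold higher in C57BL/6, and 151 reached 2-fold in neither. The remaining 3 were 2-fold lower in both strains (2 genes) or 2-fold higher in both (1 gene).

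**Figure D1:**
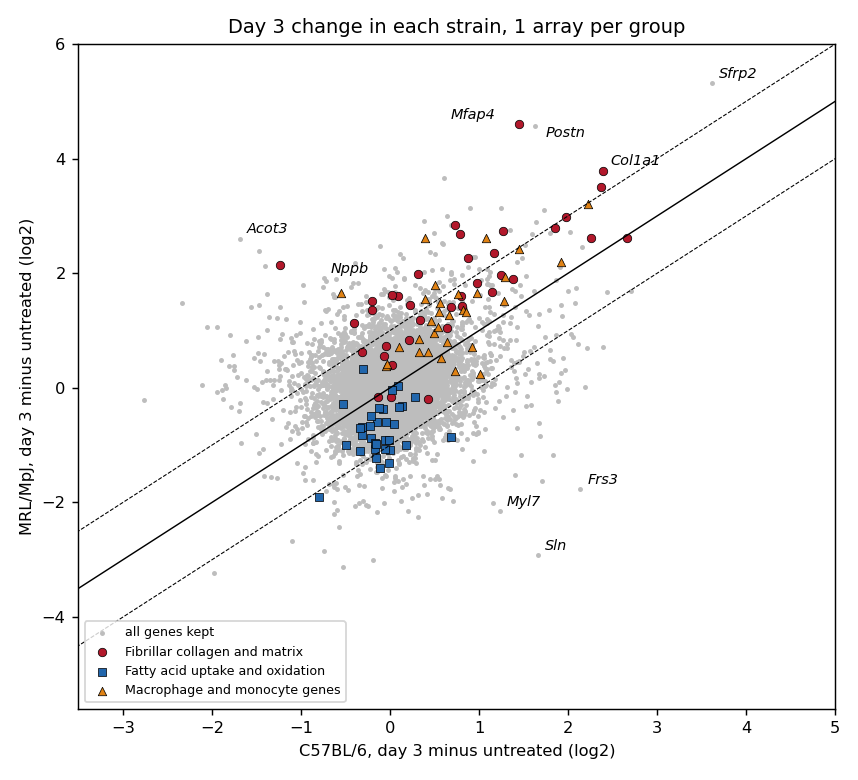
The day 3 change of each gene in MRL/MpJ (vertical, log2) against that in C57BL/6 (horizontal, log2), 1 array per group. Grey points are the 8208 genes kept, coloured points 3 gene lists, the solid line marks equal changes and the dashed lines a 2-fold difference. Matrix genes lie mostly above the solid line and genes of fatty acid oxidation mostly below it.

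A difference of changes can come from the day 3 pair or from the untreated pair. Of the 484 genes higher in MRL/MpJ, 200 had a day 3 signal at least 2-fold above that of C57BL/6, 76 had an untreated signal at least 2-fold below it, and 222 had neither. Of the 342 lower genes, 141 had a day 3 signal at least 2-fold below that of C57BL/6, 59 had an untreated signal at least 2-fold above it, and 147 had neither. A gene may stand in both of the first counts.

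No gene passed a test of the difference. limma, which took its error from how far the strain difference on days 30 and 60 varied, called 0 of 8208 genes (0%) at a Benjamini-Hochberg adjusted p under 0.05. Before adjustment, 242 genes had p under 0.05, and 151 of these had the larger change in MRL/MpJ, and the smallest adjusted p was 0.162. The number of calls depended on the setting: doubling the offset gave 8, a filter on the 4 arrays alone gave 4, an error that follows intensity gave 6 (0.0731% of 8208), and the other 6 alternatives gave 0. All of what follows describes these 4 arrays, and "higher" and "lower" are used of their values.

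Genes with several probe sets offer a check of the measurement, though not of the animals, because the probe sets of a gene share the array. Of 2730 genes with at least 2 probe sets kept, 32 (1.17%) had every probe set at least 2-fold higher in MRL/MpJ by the difference of changes, and 14 (0.513%) had every probe set at least 2-fold lower. Ranked by the mean difference, the leading 15 were Serpinf1, Galnt10, Ptn, Col8a1, Uba7, Lox, Msx1, Mfap5, Syt11, Bgn, Aspn, Frzb, Adcy7, Col18a1 and Ptgds. The other 17, which fall outside the naming rule, were Tnfrsf12a, Clu, Plekha4, Vcan, Thbs1, Tbl2, Fstl1, Srr, Pitpnb, Sparc, Col14a1, Col1a1, Zfp36l1, Nrep, Prelp, Wwp2 and Galm. At the limit, the weakest probe set of Galm gave 1.01 and that of Fam104a, just outside, 0.98. All 14 lower genes are named below. At their limit Lpin1 gave -1.0 and Ces1d, just outside, -0.98.

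First by mean difference was Serpinf1, which encodes pigment epithelium-derived factor, a secreted serpin known to restrain vessel growth. Its first probe set had signals of 2129 on day 3 and 399 untreated in MRL/MpJ, against 643 and 443 in C57BL/6. The second had 989.7 on day 3 and 55.5 untreated in MRL/MpJ, against 77.3 and 53.0 in C57BL/6. Serpinf1 was thus higher on day 3 in both strains, with a change of 2.34 and 3.60 in MRL/MpJ and 0.51 and 0.38 in C57BL/6. By day 30 its first probe set had 1068 in MRL/MpJ and 1294 in C57BL/6, and by day 60 1875 and 1478, so the wide gap of day 3 was not seen at the later times.

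The promoter windows of 3 agreeing genes are shown: Serpinf1 and Ptgds with the larger change in MRL/MpJ, and Hopx with the smaller. Ptgds stands for the agreeing genes that hold the letters searched for. Serpinf1 and Hopx were shown whether or not they held them. The windows run from 250 bases before to 50 bases after the start of the gene, 5′ to 3′ in the direction of the gene, from RefSeq on build GRCm38.p6. Capitals mark the letters TGANTCA, where N is any base. They take in TGACTCA and TGAGTCA, the sites of AP-1, the dimer of Fos and Jun proteins, and looser forms.
Serpinf1, chr11:75422574-75422873, minus strand: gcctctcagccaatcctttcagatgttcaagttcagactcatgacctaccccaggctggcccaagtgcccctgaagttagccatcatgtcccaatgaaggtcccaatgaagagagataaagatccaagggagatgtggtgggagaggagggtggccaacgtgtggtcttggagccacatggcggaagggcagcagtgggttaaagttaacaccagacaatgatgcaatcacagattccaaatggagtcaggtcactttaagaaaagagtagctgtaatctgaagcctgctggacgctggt
Ptgds, chr2:25469700-25469999, minus strand: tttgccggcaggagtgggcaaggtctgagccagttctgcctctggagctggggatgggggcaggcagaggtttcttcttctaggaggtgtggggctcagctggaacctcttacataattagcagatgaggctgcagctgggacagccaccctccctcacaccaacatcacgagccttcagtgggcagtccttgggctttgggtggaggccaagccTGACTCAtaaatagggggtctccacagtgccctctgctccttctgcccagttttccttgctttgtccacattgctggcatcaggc
Hopx, chr5:77115074-77115373, minus strand: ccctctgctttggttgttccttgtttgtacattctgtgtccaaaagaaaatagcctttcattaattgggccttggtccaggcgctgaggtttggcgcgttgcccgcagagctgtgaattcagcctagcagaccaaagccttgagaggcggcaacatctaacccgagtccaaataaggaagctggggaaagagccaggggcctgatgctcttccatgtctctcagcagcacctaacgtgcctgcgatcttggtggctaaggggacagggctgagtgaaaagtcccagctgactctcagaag

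The Ptgds window holds the motif at base 216 of 300, and those letters are not in the Serpinf1 and Hopx windows. Of the 32 agreeing genes higher in MRL/MpJ, 24 had a window in the table, and 4 of these (16.7%) held TGANTCA on either strand: Ptgds, Uba7, Plekha4 and Zfp36l1. The Zfp36l1 match reads TGATTCA, a looser form. Of the 14 lower genes, 9 had a window and 0 held it. The share was 5.35% over the 6637 kept genes with a window and 7.93% over all 27025 windows. Of 3 other motifs searched on both strands, TATAAA was in 4 of the 24 windows (16.7%) against 7.92% of the kept genes, CCAAT in 9 (37.5%) against 37.9%, and the direct repeat bound by PPAR receptors in 0 against 0.0151%. A match is a run of letters and not a measured binding site.

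Ptgds makes prostaglandin D2, a lipid mediator. It had signals of 6074 on day 3 and 5537 untreated in MRL/MpJ, against 1976 and 5218 in C57BL/6 on one probe set and 3182 on day 3 and 3349 untreated in MRL/MpJ, against 756 and 2552 in C57BL/6 on the other. Its MRL/MpJ signals stayed close to each other, and the C57BL/6 signal was lower on day 3 than untreated, by -1.39 and -1.72 on the log2 scale. Tnfrsf12a, the receptor for the cytokine TWEAK, had the same pattern, with 1651 on day 3 and 1592 untreated in MRL/MpJ, against 764 and 1937 in C57BL/6 on its brighter probe set.

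Matrix genes among the agreeing ones included collagens, small leucine-rich proteoglycans and proteins of elastic microfibrils. Bgn, biglycan, had 3 probe sets that differed by 1.68, 1.97 and 2.01. The brightest had 8602 on day 3 and 2142 untreated in MRL/MpJ, against 3499 and 2818 in C57BL/6. Mfap5, a microfibril protein also known as MAGP-2, had 2757 on day 3 and 407 untreated in MRL/MpJ, against 1043 and 593 in C57BL/6. Both genes were higher on day 3 in both strains, and the MRL/MpJ day 3 signal was the highest of the 4 in each case.

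Lox, lysyl oxidase, which crosslinks collagen and elastin, had 1019 on day 3 and 129 untreated in MRL/MpJ, against 509.9 and 195 in C57BL/6 on its brighter probe set. Col1a1, the main chain of type I collagen, had 7072 on day 3 and 486 untreated in MRL/MpJ, against 3516 and 646 in C57BL/6. Its change was 3.79 in MRL/MpJ and 2.39 in C57BL/6, so its difference of 1.39 sat on top of more than 4-fold higher signals in both strains. Col8a1 encodes a short-chain collagen of vessel walls. It had 803 on day 3 and 262 untreated in MRL/MpJ, against 248 and 289.6 in C57BL/6, so it was higher on day 3 in MRL/MpJ alone.

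Sparc, a collagen-binding matricellular protein, had 8604 on day 3 and 2174 untreated in MRL/MpJ, against 3169 and 1802 in C57BL/6. Fstl1, a secreted glycoprotein of the follistatin family, had 3032 on day 3 and 426 untreated in MRL/MpJ, against 1032 and 388 in C57BL/6. Aspn, asporin, had 834 on day 3 and 185 untreated in MRL/MpJ, against 154 and 144 in C57BL/6. In each of the 3 the MRL/MpJ day 3 signal was the highest of the 4. Over the 32 genes, 26 were at least 2-fold higher on day 3 in MRL/MpJ and 3 in C57BL/6, as a mean over probe sets. The median change was 1.46 in MRL/MpJ and -0.11 in C57BL/6. Changes were above 0 in both strains for 14 genes and of opposite sign for 18.

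Growth factor and signalling genes were also present. Ptn, pleiotrophin, a heparin-binding growth factor, had 546 on day 3 and 16.8 untreated in MRL/MpJ, against 30.2 and 10 in C57BL/6, and both untreated signals were below the offset while the C57BL/6 day 3 signal was just above it. This probe set gave a difference of 3.06. The other probe set of Ptn gave 1.78, with a C57BL/6 change of 1.38. Frzb, a secreted inhibitor of Wnt ligands, had 608 on day 3 and 202 untreated in MRL/MpJ, against 131 and 96.7 in C57BL/6. Msx1, a homeobox transcription factor, had 288 on day 3 and 29.6 untreated in MRL/MpJ, against 90.8 and 118 in C57BL/6, a difference of 2.74. Its other probe set gave 1.59, with a C57BL/6 change of 0.48. Msx1 began lower in MRL/MpJ than in C57BL/6 on both probe sets, so part of each difference came from the untreated pair.

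The same held for Uba7, which activates the ubiquitin-like protein ISG15, with 254 on day 3 and 164 untreated in MRL/MpJ, against 112 and 293 in C57BL/6 on its brighter probe set, and for Adcy7, an adenylyl cyclase, with 444 on day 3 and 149 untreated in MRL/MpJ, against 197 and 296 in C57BL/6. Galnt10, which starts O-linked glycosylation, had 164 on day 3 and 35.7 untreated in MRL/MpJ, against 42.4 and 169 in C57BL/6 on one probe set and 167 on day 3 and 83.5 untreated in MRL/MpJ, against 20.3 and 75.7 in C57BL/6 on the other. Clu, clusterin, a secreted chaperone, was the one gene of the group with 4 probe sets, and they differed by 1.60, 1.26, 1.76 and 1.61. Its brightest probe set had 14964 on day 3 and 5842 untreated in MRL/MpJ, against 5046 and 6024 in C57BL/6.

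Over the 32 genes the MRL/MpJ signal was above that of C57BL/6 in 4 untreated, 32 on day 3, 16 on day 30 and 25 on day 60, as a mean over probe sets. The median strain gap, MRL/MpJ minus C57BL/6, was -0.45 untreated, 1.19 on day 3, 0.03 on day 30 and 0.27 on day 60. Since the genes were chosen by the day 3 and untreated values, only the gaps of days 30 and 60 are free of that choice, and against a background of 44.1% and 48.6% of all kept genes above 0 they are descriptions with no test.

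The 14 agreeing genes with the smaller value in MRL/MpJ were Nfatc4, Bik, Hopx, Hes6, Acaa2, Selenbp1, Hspa1b, Fam76b, Ift81, Endog, Cebpb, Nnt, Efcab2 and Lpin1. Hopx encodes a small homeodomain protein that restrains cardiac growth genes through serum response factor. Its bright probe set had 2554 on day 3 and 9378 untreated in MRL/MpJ, against 9456 and 7608 in C57BL/6, and its other had 930.5 on day 3 and 1881 untreated in MRL/MpJ, against 1410.2 and 1364 in C57BL/6. In both, the MRL/MpJ day 3 signal was the lowest of the 4. Acaa2, the mitochondrial thiolase of the last step of fatty acid oxidation, had 3098 on day 3 and 7754 untreated in MRL/MpJ, against 6199 and 6249 in C57BL/6 on its brightest probe set, and its 3 probe sets differed by -1.76, -1.30 and -1.29.

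Lpin1, a phosphatidate phosphatase that also acts with PGC-1alpha on fatty acid genes, had 381 on day 3 and 914 untreated in MRL/MpJ, against 1608 and 1852 in C57BL/6. Endog, a mitochondrial nuclease, had 339.8 on day 3 and 709 untreated in MRL/MpJ, against 578 and 576 in C57BL/6. Both were lower on day 3 in MRL/MpJ and close to their untreated value in C57BL/6 on these probe sets. Nnt, the mitochondrial transhydrogenase, had 3962 on day 3 and 5762 untreated in MRL/MpJ, against 4863 and 3039.8 in C57BL/6. Its MRL/MpJ signal was lower and its C57BL/6 signal higher on day 3.

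Cebpb, a transcription factor of inflammation and acute-phase genes, had 248 on day 3 and 504 untreated in MRL/MpJ, against 761 and 652 in C57BL/6, so it was lower on day 3 in MRL/MpJ alone. Hspa1b, an inducible chaperone, was lower on day 3 in both strains, with 175 on day 3 and 1894 untreated in MRL/MpJ, against 175 and 773 in C57BL/6 on its brightest probe set. The MRL/MpJ value began more than 2-fold above that of C57BL/6, and both strains reached like signals on day 3. Nfatc4, a transcription factor activated by calcineurin, had 264 on day 3 and 144 untreated in MRL/MpJ, against 192 and 22.2 in C57BL/6 on one probe set and 40.8 on day 3 and 135 untreated in MRL/MpJ, against 169.9 and 35.4 in C57BL/6 on the other. The 2 probe sets disagreed on the MRL/MpJ change, 0.77 and -1.24, and the C57BL/6 change was 2.12 and 1.63.

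Bik, a pro-death BCL2 family gene, had 23.2 on day 3 and 168 untreated in MRL/MpJ, against 150.3 and 90.8 in C57BL/6, and Hes6, a bHLH transcription factor, had 30.0 on day 3 and 95.1 untreated in MRL/MpJ, against 187 and 93.1 in C57BL/6. These probe sets gave the wider differences, -2.51 for Bik and -1.90 for Hes6, against -1.36 and -1.24 on the other ones. On its other probe set the MRL/MpJ change of Hes6 was only -0.25. Ift81, a gene for transport within cilia, had 1044 on day 3 and 2181 untreated in MRL/MpJ, against 651 and 592 in C57BL/6. Ift81 was higher in MRL/MpJ at every time, with 657 in MRL/MpJ and 607 in C57BL/6 on day 60 as its narrowest gap. Over the 14 genes the median change was -1.01 in MRL/MpJ and 0.20 in C57BL/6, with opposite signs for 11 genes and both below 0 for 3. Their median strain gap was 0.47 untreated, -0.83 on day 3, 0.36 on day 30 and 0.00 on day 60.

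**Figure D2:**
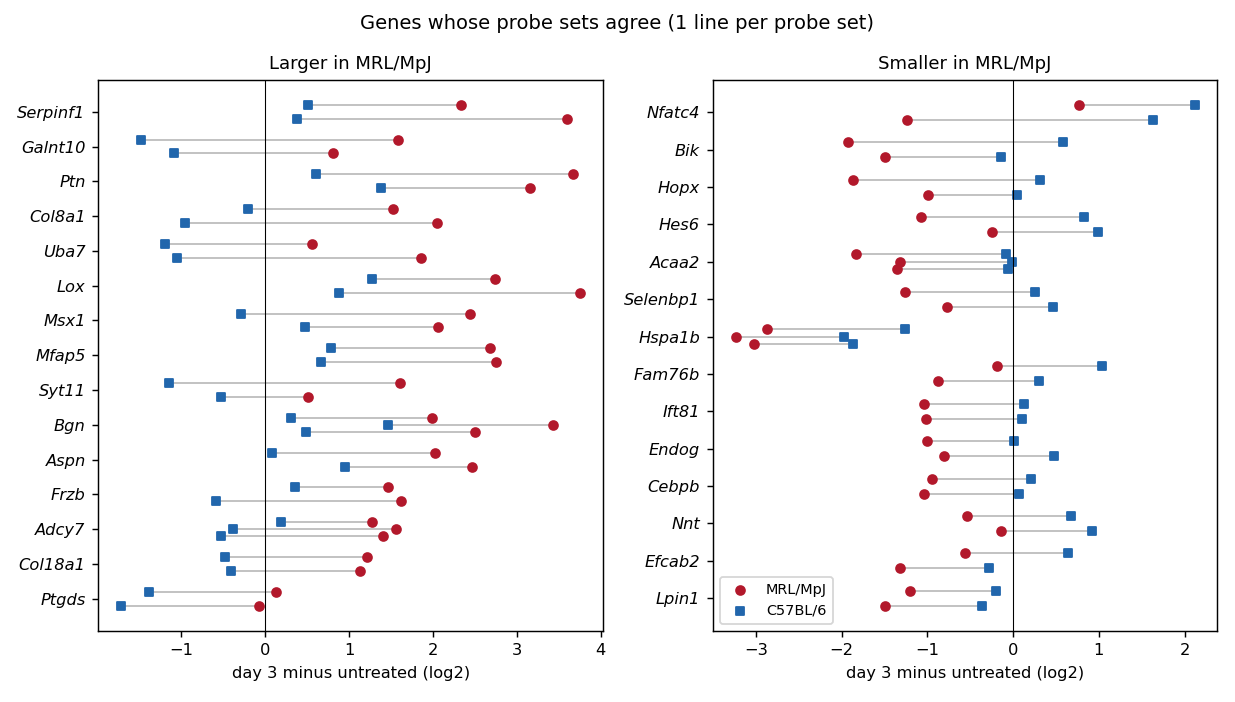
Changes of the named genes whose probe sets all differed at least 2-fold in the same direction. The left panel has 15 with the larger signed change in MRL/MpJ, the right panel 14 with the smaller. The horizontal axis is day 3 minus untreated (log2), circles are MRL/MpJ and squares C57BL/6, each line joins the values of 1 probe set, and no error can be drawn with 1 array per group. Serpinf1, Ptn, Lox and Bgn reach more than 3 in MRL/MpJ on at least 1 probe set.

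Functions were then described through gene lists, to be read against the 5.9% of all kept genes with a change at least 2-fold larger in MRL/MpJ and the 4.17% with one at least 2-fold smaller. Lists share members, so their counts are not independent. Nppa, Myl4 and Myl7 are in the atrial and the fetal list. Ctss is in the protease, macrophage and antigen presentation lists, and Fstl1 in the matricellular, fetal and TGF-beta lists. Of 37 measured matrix genes, 17 had a change at least 2-fold larger in MRL/MpJ and 0 a change 2-fold smaller, and 33 of 37 lay above 0, against 51.2% of all genes. The median change was 1.61 in MRL/MpJ and 0.69 in C57BL/6, and the median difference was 0.94, against 0.02 for all genes. At least 2-fold higher on day 3 were 29 of the 37 in MRL/MpJ and 12 in C57BL/6. limma called 0 of the 37 after adjustment.

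Col12a1, a collagen that decorates type I fibrils, had signals of 449 on day 3 and 79.5 untreated in MRL/MpJ, against 24.8 and 96.9 in C57BL/6. It was higher on day 3 in MRL/MpJ and lower in C57BL/6, by 2.14 and -1.23. Mfap4, a microfibril-associated glycoprotein, had 943 on day 3 and 11.4 untreated in MRL/MpJ, against 84.5 and 12.7 in C57BL/6, and both untreated signals were below the offset. Fmod, fibromodulin, which shapes collagen fibrils, had 606 on day 3 and 60.2 untreated in MRL/MpJ, against 243 and 135 in C57BL/6.

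The matrix genes named next stayed within a 2-fold difference. Eln, elastin, had 1943 on day 3 and 292 untreated in MRL/MpJ, against 2208 and 324 in C57BL/6, a difference of -0.05. Col3a1, the chain of type III collagen, had 16636 on day 3 and 2677 untreated in MRL/MpJ, against 8957 and 1858 in C57BL/6, and its changes were 2.62 and 2.25. The basement membrane chain Col4a1 differed by -0.17 and Col5a3, a minor fibrillar chain, by -0.63. P4ha1, a collagen prolyl hydroxylase, differed by -0.03. As the mean of their probe sets Eln (0.44), P4ha1 (0.44) and Col4a1 (0.21) lay above 0.

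Matricellular genes, whose products modulate cells in healing matrix, had the largest median difference of the lists. Of 19 measured, 12 had a change at least 2-fold larger in MRL/MpJ and 1 a smaller one, against 5.9% and 4.17% of all genes, with a median difference of 1.17. Median changes were 2.37 in MRL/MpJ and 1.09 in C57BL/6, so the list was higher in both. Postn, periostin, a product of activated fibroblasts, had 6776 on day 3 and 259 untreated in MRL/MpJ, against 1659 and 519 in C57BL/6. Its difference was 2.94, with an unadjusted limma p of 0.00078 that did not pass adjustment.

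Ltbp2, a latent TGF-beta binding protein, had 600.0 on day 3 and 55.3 untreated in MRL/MpJ, against 174 and 127 in C57BL/6. Thbs4, thrombospondin 4, had 627 on day 3 and 72.0 untreated in MRL/MpJ, against 85.1 and 52.1 in C57BL/6. Timp1, an inhibitor of matrix metalloproteinases, had 882 on day 3 and 75.4 untreated in MRL/MpJ, against 349 and 131 in C57BL/6. In these 3 the MRL/MpJ day 3 signal was the highest of the 4, and the C57BL/6 signal was also higher on day 3 than untreated. Sfrp2, a secreted frizzled-related protein, had 3143 on day 3 and 51.3 untreated in MRL/MpJ, against 894 and 46.8 in C57BL/6, a change of more than 8-fold in each strain. Sfrp1 went the other way with 654 on day 3 and 564 untreated in MRL/MpJ, against 539.6 and 143 in C57BL/6 and a difference of -1.52. Its other probe sets gave -0.12 to 1.27, and the mean over all its probe sets, this one included, was 0.14.

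Genes that mark fibroblasts had medians of 1.46 in MRL/MpJ and 0.72 in C57BL/6 (18 measured), and 5 had a difference of at least 2-fold, all with the larger change in MRL/MpJ, as 5.9% of all genes had. Their summed signal was 64970.2 on day 3 and 19473 untreated in MRL/MpJ, against 36175 and 18359.7 in C57BL/6. This list shares Col1a1, Col1a2, Dcn, Lum, Mfap5, Lox and Postn with the matrix lists. The 5 genes past 2-fold, Col1a1, Col1a2, Lox, Mfap5 and Postn, were all among these shared ones. Over the whole list, 16 differences lay above 0 and 2 below. Of its members that make no matrix, Pi16 had 1028 on day 3 and 341 untreated in MRL/MpJ, against 705 and 455 in C57BL/6, Thy1 362 on day 3 and 182 untreated in MRL/MpJ, against 315 and 225 in C57BL/6, and Fap 376 on day 3 and 163 untreated in MRL/MpJ, against 160.2 and 88.8 in C57BL/6. Their differences were 0.92, 0.45 and 0.39, all below 2-fold. The part of fibroblast number in the matrix difference was not tested.

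Proteases of the matrix and their inhibitors had counts close to those of all genes (5.9% and 4.17%). Of 20 measured, 2 had a change at least 2-fold larger in MRL/MpJ, Timp1 and Ctss, and 1 a smaller one, with a median difference of 0.36. That 1 was Timp4, an inhibitor abundant in normal heart, with 68.0 on day 3 and 295 untreated in MRL/MpJ, against 401 and 428 in C57BL/6. Its difference was -1.66, and -0.66 as the mean of its probe sets. Mmp2, gelatinase A, had 2248 on day 3 and 629.9 untreated in MRL/MpJ, against 1282 and 448 in C57BL/6, and Mmp14, which activates it, differed by -0.12. As the mean of the probe sets Mmp2 turned to -0.24 and Mmp14 to 0.47. Of 15 contractile genes of smooth muscle and myofibroblasts, 3 had a change at least 2-fold larger in MRL/MpJ, against 5.9% of all genes. They were Tagln (1.54), Acta2, the alpha actin of myofibroblasts, with 1807 on day 3 and 907 untreated in MRL/MpJ, against 1276 and 1508 in C57BL/6, and Actn1 (1.62), whose mean over all its probe sets was only 0.09. The median difference of that list was 0.28.

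The gap between the strains in matrix genes was widest on day 3. The median strain gap of the 37 matrix genes was -0.15 untreated, 0.89 on day 3, 0.06 on day 30 and 0.31 on day 60. The number of these genes with the higher signal in MRL/MpJ was 10, 33, 20 and 30 at those times. For all kept genes those shares were 50.5%, 53.2%, 44.1% and 48.6%. Summed matrix signal was 102307 on day 3 and 26774 untreated in MRL/MpJ, against 57585 and 29147 in C57BL/6. Bgn shows the course: its first probe set had 2142, 8602, 4476 and 8195 in MRL/MpJ from untreated to day 60, against 2818, 3499, 7596 and 6931 in C57BL/6.

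**Figure D3:**
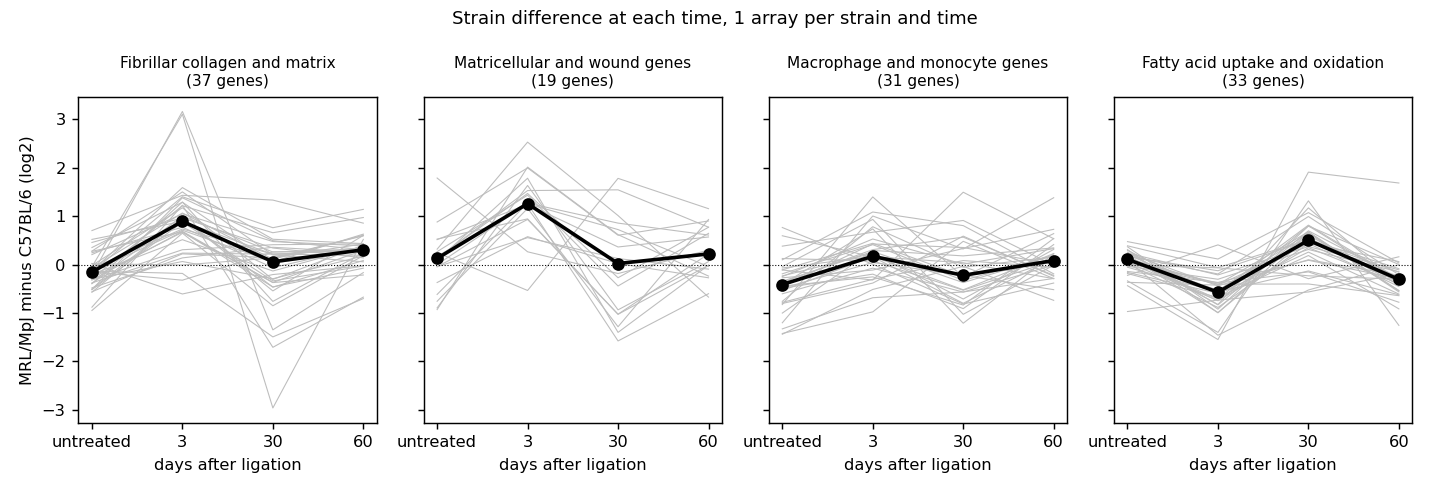
Strain gap, MRL/MpJ minus C57BL/6 (log2), for 4 gene lists untreated and on days 3, 30 and 60, spaced evenly. Grey lines are single genes, black points and lines the list median, and each point rests on 1 array per strain. The medians of the matrix and matricellular lists are highest on day 3 (0.89 and 1.26), and that of fatty acid oxidation is lowest there (-0.57).

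Macrophage and monocyte genes were higher on day 3 in both strains, with a median change of 1.32 in MRL/MpJ and 0.58 in C57BL/6. Of 31 measured, 19 were at least 2-fold higher on day 3 in MRL/MpJ and 7 in C57BL/6. The difference was above 0 for 27, against 51.2% of all genes, and reached 2-fold for 5, against 5.9%, with a median of 0.55. Ms4a7, a membrane protein of macrophages, had 772 on day 3 and 103 untreated in MRL/MpJ, against 276 and 204 in C57BL/6. Ms4a6d, of the same family, had 134 on day 3 and 22.8 untreated in MRL/MpJ, against 52.3 and 89.6 in C57BL/6, and Lyz2, macrophage lysozyme, had 3579 on day 3 and 1010.1 untreated in MRL/MpJ, against 2918 and 2050.0 in C57BL/6. In all 3 the MRL/MpJ signal was the lower one untreated and the higher one on day 3.

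Cathepsin S, Ctss, a lysosomal protease of antigen-presenting cells, had 1641 on day 3 and 244 untreated in MRL/MpJ, against 943 and 433 in C57BL/6. General macrophage markers differed less: Cd68 had 471 on day 3 and 166 untreated in MRL/MpJ, against 340.2 and 181 in C57BL/6 and Csf1r, the receptor of the growth factor CSF1, had 2359 on day 3 and 1196 untreated in MRL/MpJ, against 2000.0 and 1411 in C57BL/6. Across the list the median strain gap was -0.41 untreated and 0.17 on day 3, so it changed sign. The MRL/MpJ signal was the higher one for 5 of the 31 genes untreated and for 21 on day 3. Of all kept genes it was the higher one for 50.5% and 53.2%. Summed signal was 22855 on day 3 and 8193 untreated in MRL/MpJ, against 18293 and 11865 in C57BL/6. Of the 38 listed genes on the array, 31 passed the filter, and the chemokine receptor Ccr2 and Arg1 were among those that did not.

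Neutrophil genes had a median difference of 0.09 over 9 measured, with 1 at least 2-fold lower in MRL/MpJ (4.17% of all genes) and 0 higher. S100a9, a calcium-binding protein abundant in neutrophils, had 19 on day 3 and 126 untreated in MRL/MpJ, against 205 and 129.5 in C57BL/6. Its partner S100a8 had 69.8 on day 3 and 85.2 untreated in MRL/MpJ, against 149.6 and 125 in C57BL/6, all dim. Of 17 chemokines and cytokines, 1 reached 2-fold higher in MRL/MpJ, Tgfb3, and 0 lower, against 5.9% and 4.17% of all genes. Ccl2, a chemokine that draws monocytes, differed by -0.86. That list's median difference was 0.44, or 0.23 with the mean of a gene's probe sets, with 11 of 17 above 0, while its median change was 0.24 in MRL/MpJ and 0.35 in C57BL/6.

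Of 16 complement and acute-phase genes, 2 reached 2-fold higher in MRL/MpJ and 2 lower, against 5.9% and 4.17% of all genes. Higher were C5ar1 (1.10) and C3ar1 (1.07), the receptors of the complement peptides C5a and C3a. With the double offset these gave 0.93 and 0.95. Lower were the acute-phase genes Hp (-1.36) and Saa3 (-1.19). The list's median difference was 0.46, with 12 above 0 and 4 below, against 51.2% and 48.8% of all genes. Genes of antigen presentation had a median difference with no settled direction: 0.21, but -0.031 with the mean of a gene's probe sets and 0.025 with the filter on the 4 arrays. Of 16 measured, 2 reached 2-fold higher in MRL/MpJ and 0 lower, against 5.9% and 4.17% of all genes. These were Ctss and H2-Ab1 (1.28, and 0.31 as the mean of its probe sets). The H2 genes differ in sequence between strains, and its part in their signals was not tested. For 20 interferon-stimulated genes the median was 0.08. Ifit3 at 1.73 and Bst2 at -1.24 were the members past 2-fold, against 5.9% higher and 4.17% lower of all genes.

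TGF-beta and BMP signalling genes had a median difference of 0.52, with 7 of 26 at least 2-fold higher in MRL/MpJ and 1 lower, against 5.9% and 4.17% of all genes. The ligand Tgfb3 had 883 on day 3 and 187 untreated in MRL/MpJ, against 333 and 212 in C57BL/6. Of the proteins that hold latent ligand, Ltbp2 was given above and Ltbp4 had 1533 on day 3 and 990.3 untreated in MRL/MpJ, against 1138 and 1719.5 in C57BL/6. The activin chain Inhbb had 415 on day 3 and 50.9 untreated in MRL/MpJ, against 249.5 and 271 in C57BL/6, but its other probe set gave -0.43 against 2.59. Fstl3, which binds activin, had 148 on day 3 and 49.1 untreated in MRL/MpJ, against 61.4 and 61.1 in C57BL/6, and Smad2, which carries the signal to the nucleus, was the lower one with 149 on day 3 and 247 untreated in MRL/MpJ, against 320.1 and 214 in C57BL/6.

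Of 16 IGF and other growth factor genes, 6 had a change at least 2-fold larger in MRL/MpJ and 0 smaller, against 5.9% and 4.17% of all genes. The median difference was 0.38, or 0.21 with the filter on the 4 arrays. Beside Ptn these included Igfbp7 with 6710.3 on day 3 and 2914 untreated in MRL/MpJ, against 4343 and 5014 in C57BL/6, Igfbp3 (1.30), Hbegf (1.28), the pleiotrophin relative Mdk (1.14) and Igf1, with 595 on day 3 and 193 untreated in MRL/MpJ, against 301 and 216 in C57BL/6. The other probe sets of Igf1 gave -0.06 and 0.65, and that of Hbegf 0.12, so these did not agree in size. Wnt modulators split around a median difference of 0.15 (-0.083 with the filter on the 4 arrays), with Sfrp2 (1.70) and Frzb (1.12) on one side and Sfrp1 (-1.52) and the ligand Wnt11 (-1.16) on the other.

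Genes of energy metabolism were lower on day 3 mainly in MRL/MpJ. Of 33 genes of fatty acid uptake and oxidation, 31 had a difference below 0, against 48.8% of all kept genes, and 8 reached 2-fold lower in MRL/MpJ and 0 higher, against 4.17% and 5.9%. Median changes were -0.83 in MRL/MpJ and -0.12 in C57BL/6. Ppargc1a, which encodes the coactivator PGC-1alpha of mitochondrial genes, had 459 on day 3 and 858 untreated in MRL/MpJ, against 1312 and 807 in C57BL/6, and its 4 other probe sets gave -1.18 to -0.66. Ppara, the nuclear receptor for fatty acids, had 174 on day 3 and 375 untreated in MRL/MpJ, against 374 and 325 in C57BL/6.

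Crat, carnitine acetyltransferase, had 488 on day 3 and 1339 untreated in MRL/MpJ, against 949.8 and 1032 in C57BL/6, a difference of -1.29, and of -0.68 as the mean of its probe sets. Pdk4, the kinase that shuts pyruvate out of the TCA cycle, had 597 on day 3 and 2324 untreated in MRL/MpJ, against 1799 and 3153 in C57BL/6, so it was lower on day 3 in both strains. Exceptions were Cpt1a, the liver-type carnitine transferase, with a difference of 0.63, and the uncoupling protein Ucp3, with 0.24 (-0.17 as the mean of its probe sets). Lpl, lipoprotein lipase, had about equal signals, 19234 on day 3 and 19666 untreated in MRL/MpJ, against 20136 and 19840.5 in C57BL/6.

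Respiratory chain genes had a smaller median difference. Of 51 measured, 48 lay below 0, against 48.8% of all genes, with a median of -0.41, and 3 reached 2-fold, a share near the 4.17% of all genes: Ndufs1 and Ndufs4 of complex I and Uqcrc2 of complex III. Ndufs1 had 1884 on day 3 and 4544 untreated in MRL/MpJ, against 4645 and 4352 in C57BL/6 and Uqcrc2 had 2938 on day 3 and 6095 untreated in MRL/MpJ, against 5758 and 4704 in C57BL/6. The mean of the probe sets brought Uqcrc2 to -0.72 and Ndufs4 to -0.85. Median changes were -0.53 in MRL/MpJ and -0.04 in C57BL/6. For 22 genes of the TCA cycle and pyruvate entry the median difference was -0.57, with 19 below 0, and Fh1, fumarate hydratase, had 2179.5 on day 3 and 3967 untreated in MRL/MpJ, against 3533 and 2922 in C57BL/6.

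The gap of these lists also lay below 0 on day 60. For fatty acid oxidation the median strain gap was 0.11 untreated, -0.57 on day 3, 0.50 on day 30 and -0.31 on day 60. For the respiratory chain it was 0.09, -0.35, 0.18 and -0.35. Day 30 rests on the C57BL/6 array that stood apart. Summed signal of fatty acid genes was 112825 on day 3 and 169667 untreated in MRL/MpJ, against 150420.0 and 158491 in C57BL/6.

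Glycolysis genes had a median difference of -0.29 (-0.17 after quantile normalization) over 19 genes. The 1 past 2-fold, higher in MRL/MpJ as 5.9% of all genes were, was Slc16a3, a lactate exporter. It had 239 on day 3 and 88.2 untreated in MRL/MpJ, against 48.5 and 145 in C57BL/6. Of 27 ventricular sarcomere genes 0 were 2-fold lower in MRL/MpJ and 1 higher, against 4.17% and 5.9% of all genes, with a median difference of -0.24. Their summed signal was 295672 on day 3 and 306105 untreated in MRL/MpJ, against 285737 and 275324 in C57BL/6. The part of muscle loss in the metabolic difference was not tested.

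Ion channel and calcium handling genes had a median difference of -0.64, with 4 of 21 at least 2-fold lower in MRL/MpJ, against 4.17% of all genes. With the mean of a gene's probe sets the median was -0.42, less negative than that of fatty acid oxidation (-0.54). Kcna5, a potassium channel of repolarization, had 101 on day 3 and 283 untreated in MRL/MpJ, against 423 and 289.7 in C57BL/6. Kcnd2, a channel of the transient outward current, had 111 on day 3 and 228 untreated in MRL/MpJ, against 160.4 and 112 in C57BL/6, and Cacnb2, a calcium channel subunit, had 89.9 on day 3 and 383 untreated in MRL/MpJ, against 122 and 219 in C57BL/6. Atp2a2, the calcium pump SERCA2, differed by -0.09, and by 0.068 after quantile normalization. The fourth gene past 2-fold was Sln, sarcolipin, an inhibitor of that pump found mainly in atria.

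Sln had 6.1 on day 3 and 235 untreated in MRL/MpJ, against 858 and 251 in C57BL/6, the most negative difference of all named genes (-4.59). Myl7 and Myl4, the atrial regulatory and essential myosin light chains, moved with it. Myl7 had 97.6 on day 3 and 532 untreated in MRL/MpJ, against 1078 and 442 in C57BL/6 and Myl4 had 248 on day 3 and 759 untreated in MRL/MpJ, against 1329.7 and 483 in C57BL/6. All 3 were lower on day 3 in MRL/MpJ and higher in C57BL/6, with more than 2-fold in each strain.

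The same 3 genes varied by far more at other times. From untreated to day 60, Sln had 235, 6.1, 3254 and 2932 in MRL/MpJ, against 251, 858, 3078 and 6.7 in C57BL/6. Of 11 measured atrial and conduction genes, 4 had a change at least 2-fold smaller in MRL/MpJ, these 3 and Nr2f2 (-1.26), against 4.17% of all genes. At least 2-fold larger were 2, Nppa and Tbx5 (1.49, and 0.50 as the mean of its probe sets), against 5.9%. Of the 11 differences, 7 lay above 0 and 4 below. The list's median change was -0.14 in MRL/MpJ and 0.73 in C57BL/6 although its median difference was 0.25, so these medians differ in sign. The list's summed signal was 32612 on day 3 and 10150.3 untreated in MRL/MpJ, against 11556 and 6517 in C57BL/6, most of it from Nppa. Whether the pieces of ventricle held different amounts of atrial tissue was not tested.

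Natriuretic peptide genes, which stretched ventricles switch on, went the opposite way to the light chains. Nppa, atrial natriuretic peptide, had 28354 on day 3 and 5781 untreated in MRL/MpJ, against 6605 and 3455 in C57BL/6. Nppb, brain natriuretic peptide, had 14070.5 on day 3 and 3704 untreated in MRL/MpJ, against 4458 and 7501 in C57BL/6, with changes of 1.92 and -0.75. The Nppb signal was thus higher on day 3 in MRL/MpJ and lower in C57BL/6, and began lower in MRL/MpJ. Myh7, the slow myosin of the fetal ventricle, had 6739 on day 3 and 1011 untreated in MRL/MpJ, against 1248 and 339 in C57BL/6, a difference of 0.90.

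Acta1, skeletal alpha actin, had 9295 on day 3 and 8451 untreated in MRL/MpJ, against 2977 and 7377 in C57BL/6, so its difference of 1.44 came from the C57BL/6 pair. Ankrd1, a stress-induced protein of the sarcomere, had 17587 on day 3 and 11612 untreated in MRL/MpJ, against 8061 and 11685 in C57BL/6. Ccn2, connective tissue growth factor, had 3599 on day 3 and 713 untreated in MRL/MpJ, against 1283 and 647 in C57BL/6. Of 19 genes of the fetal and stress programme, 7 had a change at least 2-fold larger in MRL/MpJ and 3 smaller, against 5.9% and 4.17% of all genes, so members moved apart and the median difference was 0.26.

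**Figure D4:**
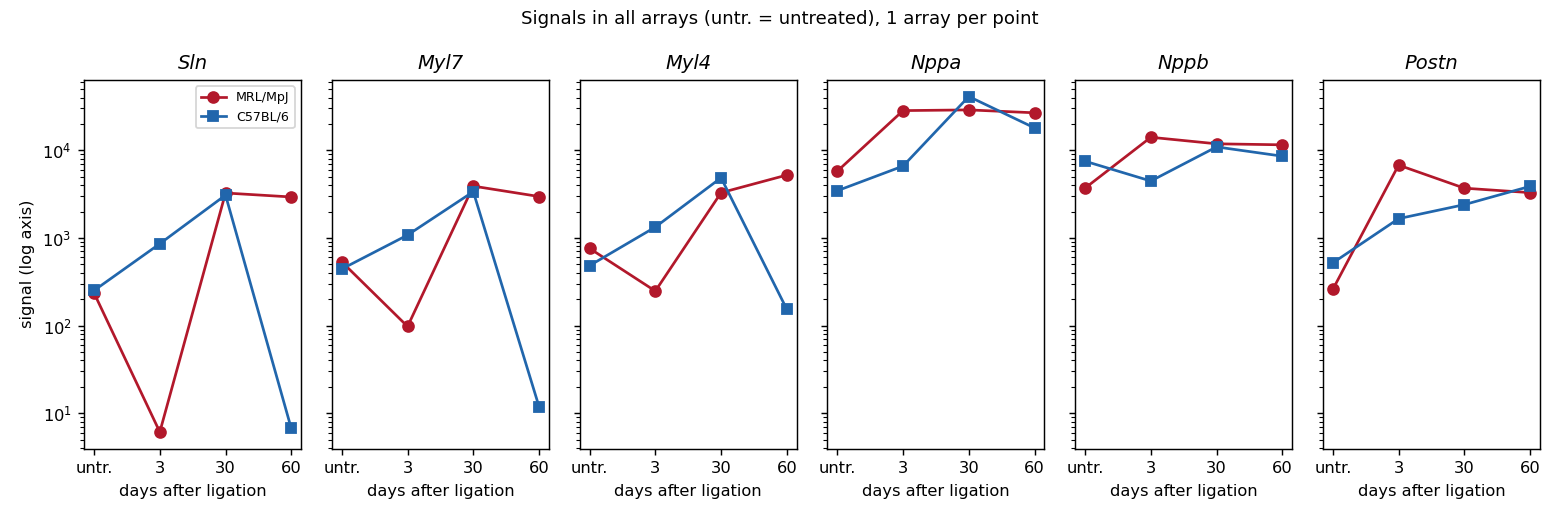
Signals of the atrial genes Sln, Myl7 and Myl4, the natriuretic peptide genes Nppa and Nppb, and Postn in all 8 arrays (log axis, times spaced evenly), circles for MRL/MpJ and squares for C57BL/6, 1 array per point. On day 3 the MRL/MpJ signal is the lower one for Sln, Myl7 and Myl4 and the higher one for Nppa, Nppb and Postn.

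Heat shock genes were lower on day 3 in both strains, with a median change of -0.48 in MRL/MpJ and -0.50 in C57BL/6 over 18 genes. The 3 with a 2-fold difference, all lower in MRL/MpJ as 4.17% of all genes were, were Hspa1a (-1.58), Hspa1b (-1.26) and the co-chaperone Bag3 (-1.05). Among immediate early genes, switched on within minutes of a stimulus, Fosl1 (2.44), Fos (1.47) and Egr1 (1.04) had the larger change in MRL/MpJ and Atf3 (-1.10) the smaller. Fos had 272 on day 3 and 81.4 untreated in MRL/MpJ, against 296 and 299 in C57BL/6, so the MRL/MpJ signal was below that of C57BL/6 untreated and close to it on day 3.

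Clock genes split too. Nr1d1, the repressor REV-ERB-alpha, had 46.1 on day 3 and 511 untreated in MRL/MpJ, against 359.6 and 619 in C57BL/6, a difference of -2.11. Cry2 (2.05) and Per2 (1.42), repressors of the other limb of the clock, differed in the opposite direction. The labels do not give the hour at which hearts were taken, so hour and group cannot be told apart.

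The remaining lists had 2 or fewer genes past 2-fold in each direction, apart from the immediate early list. Their counts are to be read against 5.9% higher and 4.17% lower of all genes. The median difference was 0.02 for 22 cytosolic ribosomal protein genes, with 0 past 2-fold, and -0.11 for 26 endothelial genes, with 1 past 2-fold, Eng (1.0, and 0.44 as the mean of its probe sets). It was 0.15 for 29 cell cycle genes (-0.027 with the mean of a gene's probe sets), where Foxm1 (1.39, but -0.03 as the mean of its probe sets) and Cenpa (-1.62) reached 2-fold in opposite directions. It was -0.13 for 27 genes of the proteasome and muscle ubiquitin ligases, -0.30 for 16 hypoxia genes and -0.05 for 20 antioxidant and metallothionein genes (0.10 with the mean of a gene's probe sets). For 11 adipocyte genes it was -0.09, for 8 skeletal muscle genes -0.10 (0.13 with the filter on the 4 arrays) and for 6 B cell genes 0.00 (0.13 with that filter). The creatine list stood at -0.32 (9 genes) but at 0.0011 with the mean of a gene's probe sets, so its direction is not settled. The cyclin-dependent kinase inhibitors stood at -0.28 (5 genes) and the nerve list at 0.50 (6). The clock list stood at -0.12 (13) and the immediate early list at 0.07 (21, or -0.046 after quantile normalization).

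T and NK cell, red blood cell and epicardium lists had 4, 3 and 3 measured genes and are not summarised. In the red blood cell list, Alas2, the heme synthesis enzyme of erythroid cells, had 32.5 on day 3 and 505 untreated in MRL/MpJ, against 168 and 256 in C57BL/6. In the skeletal muscle list Myh2, a fast skeletal myosin, had 27.5 on day 3 and 174 untreated in MRL/MpJ, against 99.1 and 67.5 in C57BL/6. Both were lower on day 3 in MRL/MpJ, by -3.13 and -1.85, which is more than in C57BL/6 (-0.53 and 0.41).

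**Figure D5:**
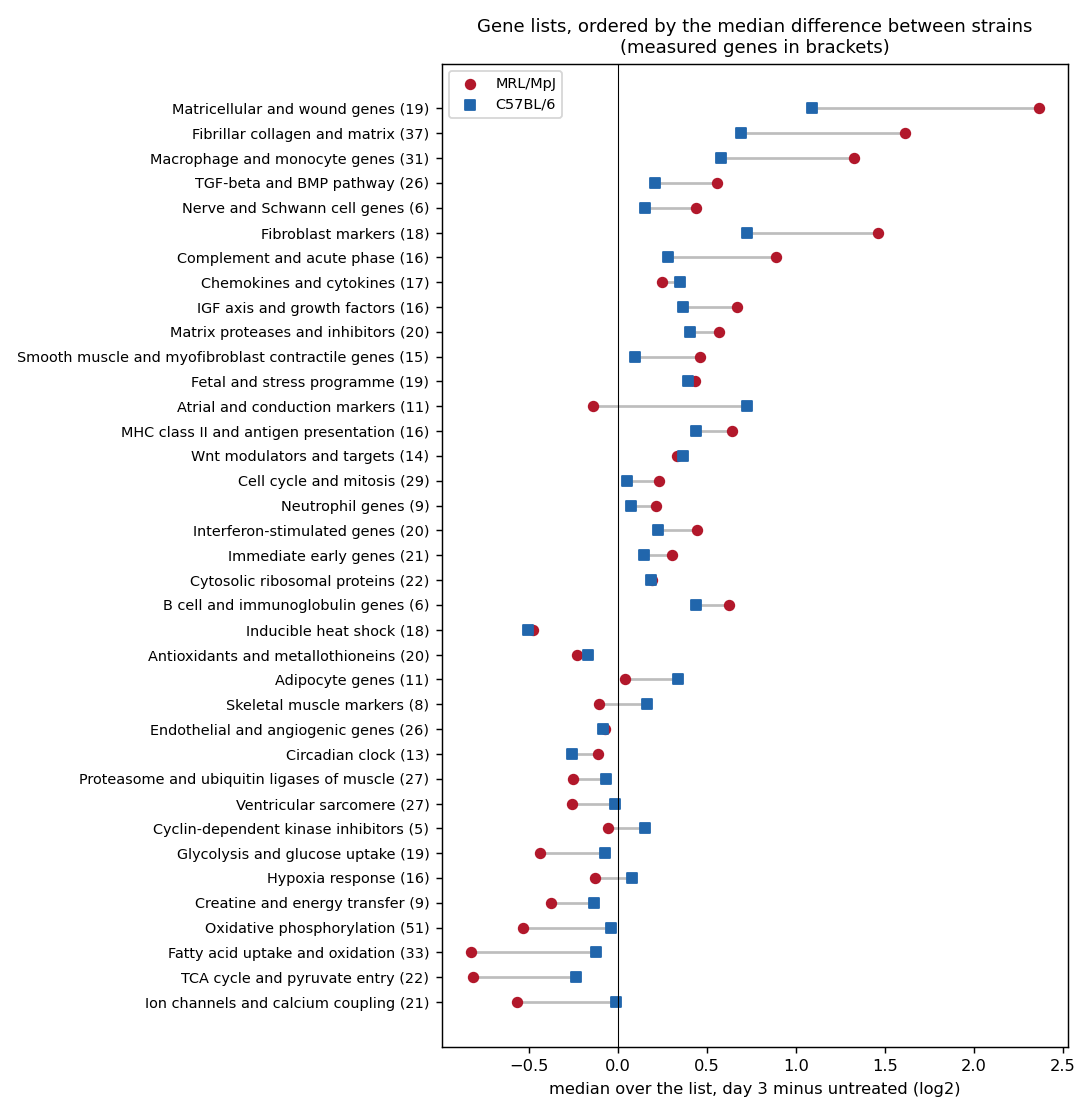
Median change of each gene list from untreated to day 3 (log2), circles for MRL/MpJ and squares for C57BL/6, with the number of measured genes in brackets and 1 array per group. Lists run from the largest median difference at the top (matricellular and matrix genes, 1.17 and 0.94) to the most negative at the bottom (ion channel genes, -0.64, or -0.42 with the mean of a gene's probe sets).

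Single probe sets gave the widest differences of all. Among 5478 genes with 1 probe set kept, Acot3, a peroxisomal acyl-CoA thioesterase, had 243 on day 3 and 16.0 untreated in MRL/MpJ, against 18.1 and 122 in C57BL/6. Tcp11, known from testis, had 382 on day 3 and 49.9 untreated in MRL/MpJ, against 101 and 331 in C57BL/6, Abca2, a lipid transporter, had 158 on day 3 and 38.4 untreated in MRL/MpJ, against 41.5 and 325 in C57BL/6, and Npy, neuropeptide Y of sympathetic nerves, had 281 on day 3 and 42.3 untreated in MRL/MpJ, against 69.7 and 232 in C57BL/6. These 4 and Col12a1 had the largest positive differences, from 3.38 to 4.29, and each was higher on day 3 in MRL/MpJ and lower in C57BL/6.

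On the negative side stood Sln and Myl7, described above, and Frs3, a docking protein of growth factor receptors, with 52.1 on day 3 and 247 untreated in MRL/MpJ, against 272 and 39.6 in C57BL/6. Carns1, carnosine synthase, had 33.2 on day 3 and 162 untreated in MRL/MpJ, against 269 and 62.3 in C57BL/6, and Terf2, a telomere-binding protein, had 8.1 on day 3 and 119.8 untreated in MRL/MpJ, against 67.5 and 14.4 in C57BL/6. The smallest limma p-values belonged to Acot3 and Tcp11 (adjusted p = 0.162 each in limma), Abca2 and Npy (0.183 each) and Terf2 (0.416). In all 5 the signals of the higher group were at most 382, and at least 1 untreated or day 3 signal lay within 2-fold of the offset or below it.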

How the data were processed

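RNA of the left ventricle was measured on 8 Affymetrix mouse arrays, 1 per strain and time, from biotin-labelled cRNA made from 5 µg of total RNA, per the labels' protocols. The deposited intensity values of 22626 probe sets are linear signals, and MAS5 is the tool that the submitters' processing notes name. Version, scaling target and detection calls are not given in the sources used here. The number of arrays limits the precision, and the offset compresses differences between dim signals.

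Probe sets were named through the platform annotation: 20380 had 1 gene symbol, 691 several and 1555 none, 0 symbols were updated, and only the first kind was used (12393 genes). After the filter on signal, the probe set with the largest mean on the log2 scale stood for its gene. Values were log2(signal + 28.6), with no further normalization. The strains' changes are differences of 1 array against 1 and have no test.

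limma 3.58.1 (lmFit, then eBayes, under R 4.3.3) was fitted to all 8 arrays with time, strain and strain terms for the untreated and day 3 pairs, and the contrast was the day 3 term minus the untreated term. The error came from the day 30 and day 60 pairs, with 1 residual degree of freedom and 16.2 prior degrees of freedom. Most of its weight is thus a spread pooled over genes. Its p-values do not measure variation between replicate animals or arrays of the groups compared. Benjamini-Hochberg adjustment ran over 8208 genes at 0.05. The procedure was tested on simulated data. Gene lists (40, of which 37 had at least 5 measured genes) were matched by symbol, 9 members through older symbols. No set test was run.

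Genes were named by this rule: up to 15 agreeing genes in each direction, up to 5 in each direction with 1 probe set, up to 4 members of a list in each direction plus members that show how it split, and the 5 smallest limma p-values where none passed. Single genes outside it were chosen after their values were seen. The members, lists and tests were chosen with earlier results of these data known. Alternatives were a larger and a smaller offset (double and 0.5 times the main one), no filter, a filter on the 4 arrays, quantile normalization, the mean of a gene's probe sets, an intensity trend, other pairs as the baseline and a looser rule of agreement. One further alternative, leaving out the day 30 pair, was chosen after seeing the data. Promoter windows are RefSeq's on GRCm38.p6. Python 3.11.15 with numpy 2.4.6, pandas 2.3.3, scipy 1.17.1 and matplotlib 3.10.9 was used.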

Additional observations from a re-analysis of the deposited data

Results flagged for a closer look

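For 12 named genes the day 3 signal was at least 2-fold from the untreated one in each strain but in opposite directions, by the single array of each group, and the difference between the strains' changes was not tested with replicates of these groups. Higher on day 3 in MRL/MpJ and lower in C57BL/6 were 6 genes. Acot3 had changes of 2.60 in MRL/MpJ and -1.69 in C57BL/6 on the log2 scale, a difference of 4.29. Tcp11 (2.39 and -1.47) differed by 3.86, Abca2 (1.48 and -2.33) by 3.81, and Npy (2.13 and -1.41) by 3.53. The collagen gene Col12a1 (2.14 and -1.23) differed by 3.38 and the lactate exporter gene Slc16a3 (1.20 and -1.17) by 2.37.

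Lower on day 3 in MRL/MpJ and higher in C57BL/6 were the other 6. Among the atrial genes, Sln had changes of -2.92 in MRL/MpJ and 1.66 in C57BL/6, a difference of -4.59, Myl7 of -2.15 and 1.23, a difference of -3.39, and Myl4 of -1.51 and 1.41, a difference of -2.92. Frs3 (-1.77 and 2.14) differed by -3.91, Carns1 (-1.63 and 1.71) by -3.34, and Terf2 (-2.02 and 1.16) by -3.18. Over all kept genes, 16 were at least 2-fold higher in MRL/MpJ and 2-fold lower in C57BL/6, and 9 the reverse.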

How the results depend on the processing

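Each group of the comparison rests on 1 array, so no array could be left out. No paired analysis was possible because the groups have 1 array each and carry no shared replicate numbers. Without a filter the 2-fold counts were 951 higher and 687 lower in MRL/MpJ, against 484 and 342, over 12393 genes. The agreeing genes lower in MRL/MpJ numbered 23 under the looser rule and 8 with the double offset, against 14, and the agreeing genes higher in MRL/MpJ ranged from 25 to 42. limma called 8 genes with the double offset (Abca2, Acot3, Col12a1, Frs3, Npy, Postn, Sln and Tcp11), 4 with the filter on the 4 arrays (Abca2, Acot3, Npy and Tcp11) and 6 with an intensity trend (Sln, Myl7, Postn, Myl4, Tcp11 and Nppb). The causes were not tested. With 1 residual degree of freedom, the prior degrees of freedom moved between 5.25 and 146 and became infinite with the trend.

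Of 222 alternative list medians, 12 changed sign, in 10 lists, and 208 moved by at most 0.1 or by at most 1.5 times. Among these 208, 3 changed sign near 0: heat shock to 0.030 after quantile normalization, ribosomal proteins to -0.021 with the mean of a gene's probe sets, and B cells to 0.0006 with the double offset. Taking the mean of a gene's probe sets turned antigen presentation to -0.031 and the creatine list to 0.0011, and gave chemokines 0.23, cell cycle -0.027, ion channels -0.42 and antioxidants 0.10. Quantile normalization gave glycolysis -0.17, immediate early genes -0.046 and antioxidants 0.063. The filter on the 4 arrays gave antigen presentation 0.025, B cells 0.13, skeletal muscle 0.13, Wnt -0.083 and IGF 0.21. The cause was not tested. The matrix, matricellular, macrophage, fatty acid, TCA and respiratory chain medians kept their direction in all 6 alternatives. Of 903 alternative values of named genes, 31 fell below 2-fold and 11 changed sign. Of these 11, 2 were past 2-fold before, both with the mean of the probe sets: Sfrp1 to 0.14 and Foxm1 to -0.027. The other 9 were below 2-fold: Col4a1, Eln, Mmp14, Mmp2, P4ha1 and Ucp3 with the mean of the probe sets, and Atp2a2, Jun and Lpl after quantile normalization.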
